A study of Rattus norvegicus with 36 samples.

Results

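The comparison is between ganglia of sham-operated rats taken 50 days after surgery and ganglia of sham-operated rats taken 28 days after it. Its members are 12 of the series' 36 arrays, chosen by their titles: for each of the 3 Affymetrix RG_U34 chip types (A, B and C), 2 arrays of the 28-day sham pool and 2 arrays of the 50-day sham pool. The tissue was the dorsal root ganglion of the rat, and a sham pool held L4 and L5 ganglia together. These rats had the operation without the L5 spinal nerve ligation that the other rats of the series received. The other 24 arrays measured L5 ganglia of ligated rats and the neighbouring L4 ganglia of the same model, at the same 2 times. They serve here as a comparison for sham ganglia and as pools in the tests of the day described below. Each pool combined ganglia of 30 rats, as far as this is stated. The labels name no strain, sex or age. Both arrays of a pool carried the same RNA, so each day is 1 sample, no test of 50 against 28 days in sham ganglia alone can be made, and the spread between the 2 arrays of a pool is technical. The day cannot be told apart from the age of the rats, from the time since surgery, or from anything else that differed between the pools. In a pool, fewer cells of a type and less RNA per cell cannot be told apart either.

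A dorsal root ganglion holds the cell bodies of sensory neurons that report touch, limb position, temperature and pain to the spinal cord. Each neuron is wrapped by satellite glial cells, its axon is sheathed by Schwann cells, and the whole sits in a capsule of fibroblasts and collagen crossed by blood vessels. After sham surgery the spinal nerve is left unligated, so the ganglion's neurons keep their axons.

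The 28-day replicate 1 array of chip B is titled 28 days, but its description says 50 days, and the title was used. On chip B this array correlated with the other 28-day array at r = 0.952 across tested probe sets, and with the 50-day arrays at 0.932 and 0.928. Over the 3 chips the 2 arrays of a sham pool correlated at 0.928 to 0.952 and arrays of different pools at 0.889 to 0.932. The ratio of the 3′ to the 5′ probe set of GAPDH, a measure of RNA integrity and labelling, had a median of 7.89 (5.66 to 11.9) over the 6 arrays of 28 days and 6.52 (5.10 to 8.52) over the 6 arrays of 50 days. For beta-actin the medians were 5.15 and 5.09. The GAPDH medians at 28 and 50 days were lower in the ganglia that sham is set beside, 5.43 and 5.83 in L4 and 4.57 and 3.85 in L5. The part of these differences in the results below was not tested. On chip C the replicate 2 arrays of both pools reached higher maxima (12300.3 and 18900.3) than the replicate 1 arrays (9474.7 and 9808.8).

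Most of what could be measured differed little between the 2 sham pools. Signals were taken as log2(signal + pseudocount), and the difference was the mean of the 2 arrays at 50 days minus the mean of the 2 arrays at 28 days. Of 15721 probe sets tested, 80.1% differed by less than 0.5 on the log2 scale, and the median difference was 0.02. A probe set was called when the difference was at least 1 in size, which is 2-fold, and both arrays of one pool lay above both arrays of the other. By this rule 487 probe sets (3.10%) were called, 273 (1.74%) higher and 214 (1.36%) lower at 50 days. Scaling the arrays to the hybridisation controls instead of their overall mean moved the median difference of all probe sets to 0.15 and the share of calls that were higher from 56.1% to 79.0%. Chip A gave 152 higher and 93 lower (4.67% of those tested), chip B 34 and 55 (1.70%), and chip C 87 and 66 (2.92%). Leaving out 1 array of a pool gave 366 to 531 calls higher and 287 to 413 lower. With the disputed chip B array placed at 50 days, 515 probe sets were called in all, and with it left out 575. Calls were commoner among dim probe sets: 6.61% of those in the lowest signal class of 4 were called and 1.55% in the highest. The 2 arrays of a pool themselves differed by at least 1 for 4.80% of probe sets at 28 days and 5.15% at 50 days. For genes with a called probe set and others tested, 173 of the 277 other probe sets (62.5%) had the same sign.

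**Figure D1:**
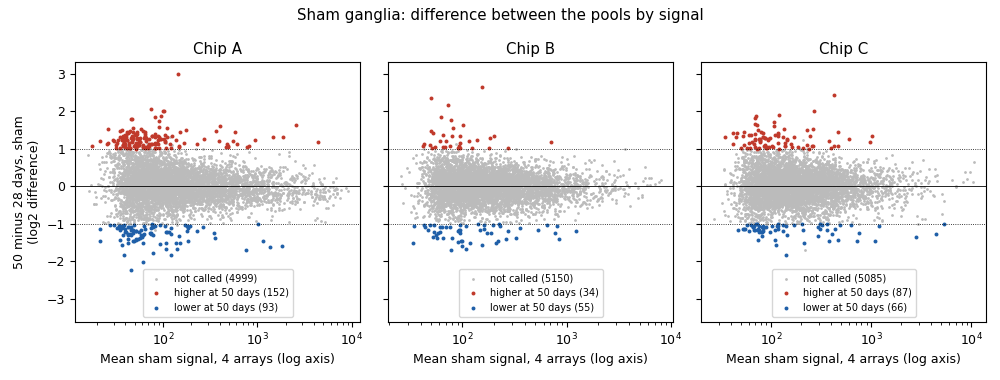
Each point is a probe set of chip A, B or C: the mean signal of the 4 sham arrays on a log axis against the 50 minus 28 days difference in log2 units, with dotted lines at 1 and -1 and called probe sets coloured. Calls gather at the dim end, 152 higher and 93 lower on chip A, 34 and 55 on chip B, 87 and 66 on chip C.

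The brightest named genes of sham ganglia were mostly those of neurons, of myelin and of general upkeep, and none of the genes named here as brightest was called. Of the 50 brightest probe sets of chips A, B and C, 25, 32 and 32 had 1 gene name. Brighter probe sets without 1 name are left out below, and on chip B the first named gene, Snap25, ranked 8. Signal depends on the probes as well as on the RNA, so brightness is given only as rank of signal within a chip. On chip A the 10 brightest named genes were Ywhah, a 14-3-3 adaptor protein; Rps29, a ribosomal protein; Atp1b1, a sodium pump subunit; Thy1, a surface protein of neurons; the neurofilament subunits Nefl and Nefm; Pmp22, a protein of peripheral myelin; COX3, a mitochondrial respiratory subunit; Oaz2, an inhibitor of polyamine synthesis; and Tuba1b, a tubulin. On chip B they were Snap25, which drives synaptic vesicle fusion; Actg1, a cytoplasmic actin; Cplx1, a regulator of vesicle release; Map1b, a microtubule protein of axons; Vdac2, a mitochondrial channel; Rpl37a; Ctnnb1, beta-catenin; Stmn3, a tubulin-binding stathmin; Txn1, thioredoxin; and Atp6v1g1, a proton pump subunit. On chip C they were Uchl1, the neuronal ubiquitin hydrolase PGP9.5; Tubb2a, a tubulin; Mbp, myelin basic protein; Zwint, Gpr108, Fau, Actg1, Rpl11; Col1a2, a chain of type I collagen; and Aldoc, a glycolytic enzyme. The rank of Gpr108 rested on a single probe set, as no other tested one of this gene exceeded 300.3 on a sham array.

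Among the 50 brightest probe sets of a chip, 0 on A, 0 on B and 3 on C were called, and their median difference in size was 0.16, 0.15 and 0.22. The 3 called on chip C had no gene name here and were all lower at 50 days. These 50 probe sets carried 15.1%, 12.0% and 13.2% of the summed sham signal of their chip. Nefl gave 7017.0 and 6833.8 at 28 days against 6963.6 and 6397.2 at 50 days, a difference of -0.05, and the pools overlapped. Pmp22 gave 6853.8 and 5619.8 against 7280.2 and 7296.2, a difference of 0.23. Uchl1 on chip C showed how the brightest signals could vary between arrays of 1 pool: 4267.2 and 12300.3 at 28 days and 6706.8 and 18900.3 at 50 days, with the replicate 2 array high in both pools. Col1a2 was the brightest named gene with a sizeable difference, 5975.2 and 6702.5 against 3688.8 and 3868.6, which is -0.74 and short of the call although the pools did not overlap.

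No general neuronal marker reached the call, and the members differed in both directions. Of 22 general neuronal markers, 19 were tested, 18 of them lay in the top 10% of sham signal on their chip, 0 were called, and their median difference was 0.05, against 0.02 over all probe sets. Tubb3, a neuronal tubulin, differed by 0.64 and Vsnl1, a calcium sensor, by -0.56. Genes more particular to sensory neurons, among them Scn10a, Scn11a, Calca and Trpv1, passed the filter on low signal. Lists of 10 sodium channels (median 0.03), 19 potassium channels (0.04), 9 calcium channels (0.08), 9 sensory transduction channels (0.10), 13 genes of large-diameter neurons (0.28) and 7 of non-peptidergic nociceptors (0.02) also held 0 calls. As 3.10% of all probe sets were called, 0 calls in neuronal lists of these sizes say little about neurons. Scn11a and Scn10a, the tetrodotoxin-resistant sodium channels of nociceptors, differed by 0.10 and 0.05, and Scn9a, which amplifies small depolarisations in the same cells, by -0.46 on its brighter probe set and 0.59 on a dimmer one. Trpv1, the heat and capsaicin receptor, gave 134.7 and 108.8 at 28 days and 110.6 and 141.4 at 50 days, and the pools overlapped. Cacna2d1, the calcium channel subunit that binds gabapentin, differed by -0.13. Nefh, the heavy neurofilament of large neurons, and Prph, the peripherin of small ones, differed by -0.17 and -0.07. Other probe sets of these neuronal genes lay higher at 50 days without overlap and short of the call: Uchl1 by 0.82 and 0.74 on chip A, Nefl by 0.57 and Nefh by 0.67.

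Glial lists held no call. Of 15 tested genes of myelinating Schwann cells and 10 of satellite glia, 0 were called, with medians of 0.13 and 0.03. Apoe, the lipid carrier that satellite glia make, gave 4756.7 and 4762.3 against 4869.5 and 4901.8. Central glial and spinal cord markers, a check on the dissection, had 0 calls among 9 and a median of 0.14. With 3.10% of all probe sets called, 0 calls in lists of these sizes say little about these cells.

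Skeletal muscle genes stood higher in the 50-day sham pool. Of 33 genes on this list 23 were tested, 8 were called higher (34.8%, against 1.74% of all probe sets) and 0 lower, and the median difference was 0.57. Acta1, the actin of skeletal muscle thin filaments, gave 221.7 and 152.8 at 28 days and 559.1 and 519.9 at 50 days, a difference of 1.49 (2.80-fold). Both 50-day arrays were above both 28-day arrays. Ckm, the muscle creatine kinase that buffers ATP, gave 103.9 and 69.8 against 277.5 and 256.6, a difference of 1.51, again without overlap. The promoters of these 2 genes are shown because both genes were higher at 50 days and both are textbook targets of muscle transcription factors. Each is the 250 bases before the start of the gene in RefSeq's GRCr8 annotation, read in the direction of the gene, Acta1 from the minus strand at chr19:68784195-68784444 and Ckm from the plus strand at chr1:88189211-88189460. Capitals mark matches, on either strand, to the E-box CANNTG bound by myogenic factors and to the CArG box bound by serum response factor.
Acta1: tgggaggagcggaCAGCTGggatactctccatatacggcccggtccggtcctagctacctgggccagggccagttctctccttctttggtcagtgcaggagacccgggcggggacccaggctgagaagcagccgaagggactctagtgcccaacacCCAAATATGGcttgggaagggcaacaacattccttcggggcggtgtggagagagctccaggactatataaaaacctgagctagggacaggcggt
Ckm: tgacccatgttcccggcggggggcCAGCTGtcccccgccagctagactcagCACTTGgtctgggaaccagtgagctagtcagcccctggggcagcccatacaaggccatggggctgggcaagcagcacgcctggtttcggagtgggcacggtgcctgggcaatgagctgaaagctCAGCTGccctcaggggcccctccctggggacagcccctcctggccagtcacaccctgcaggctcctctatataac
Acta1 held 1 E-box and 1 CArG box, the latter at -94 to -85 from the start, and Ckm held 3 E-boxes and 0 CArG boxes. An E-box of this loose form was present in 65.5% of 33469 rat promoter windows of the same length, and a CArG box in 1.5%. A match describes the letters and is no evidence of binding.

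The other called muscle genes were a calcium pump, troponins, myosins and a glycogen enzyme. Atp2a1, the calcium pump of the fast-fibre sarcoplasmic reticulum, gave 49.4 and 50.0 at 28 days against 172.0 and 166.2 at 50 days, a difference of 1.54 and the closest agreement between arrays of the 8. Tnnc2 and Tnni2, calcium-binding and inhibitory troponins of fast fibres, differed by 1.32 and 1.36. Pygm, muscle glycogen phosphorylase, differed by 1.06. Myh2 and Myh7, myosin heavy chains, differed by 1.08 and 1.39, but both were dim: Myh7 gave 5.0 and 52.4 at 28 days against 80.5 and 72.7, and Myh2 gave 5.2 and 6.5 against 45.2 and 14.0. Tnnt3, another fast troponin, and Actn3, the alpha-actinin of fast fibres, differed by 0.94 and 0.91, just under the call. Others differed little or were lower: Tpm1, which other cells also make, by 0.13, Myh1 by 0.06, Myl1 by -0.22 and Pgam2 by -0.53. Pvalb, which marks both fast muscle and proprioceptive neurons, differed by 0.77. The summed signal of the 23 genes was 3743.5 and 3527.6 on the 28-day arrays and 5197.1 and 5038.5 on the 50-day arrays, with no member at 0.

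In the operated rats the muscle list did not stand higher at 50 days. The median of the same 23 genes was 0.10 in L4 ganglia, with 0 called. In L5 ganglia it was -0.26, with 2 called higher and 4 lower. Over all probe sets, 0.980% were called higher and 0.795% lower in L4, and 5.44% and 4.94% in L5. At the L4 shares, 0 calls among 23 genes say little. For Acta1 the difference was 0.22 in L4 and -1.73 in L5, and for Atp2a1 0.01 and -1.83. Skeletal muscle is not part of the ganglion but lies beside it, and the part of tissue carried along at dissection was not tested. Under other scalings, pseudocounts, filters and left-out or moved arrays, 4 to 10 members of the sham list were called higher. With no filter, and without the 50-day replicate 2 array, 1 was called lower. The median of the sham list ranged from 0.28 to 0.77. The replicate block and a threshold of 1.5 are not in these ranges. Of the called members only Atp2a1 and Ckm differed by 1.5 or more. The median over all tested probe sets of each gene, in place of the brightest, was 0.77.

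**Figure D2:**
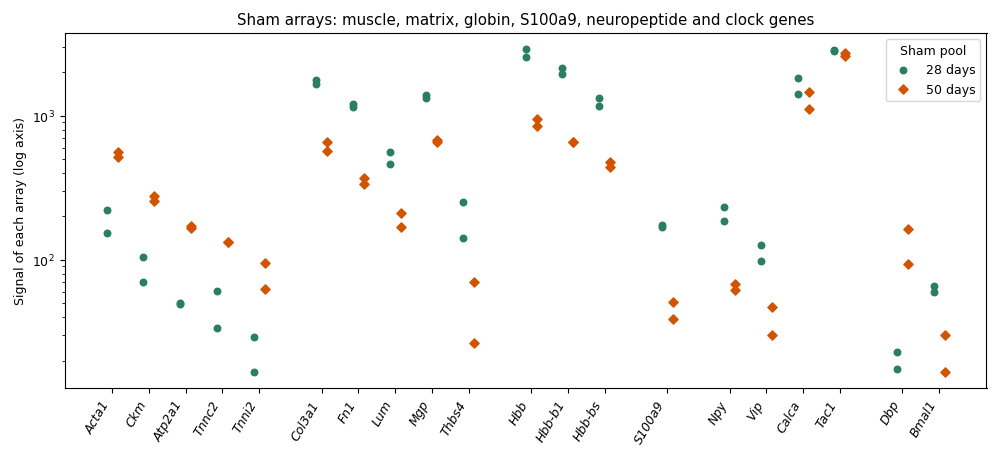
The signal of each sham array on a log axis for 20 genes grouped as muscle, matrix, globin, S100a9, neuropeptide and clock, with 28-day arrays as circles and 50-day arrays as diamonds. The pools lie apart for every gene shown but Calca, where they overlap, and Tac1 is apart by a narrow margin.

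Genes of the extracellular matrix, the collagens and proteoglycans of the capsule and of the sheath around neurons, were lower in the 50-day pool. Of 49 tested, 0 were called higher and 9 lower (18.4%, against 1.36% of all probe sets), and the median was -0.45. Col3a1, the collagen of young and reticular connective tissue, gave 1760.0 and 1645.3 at 28 days against 660.6 and 567.9 at 50 days, a difference of -1.46. Fn1, fibronectin, an early scaffold of wound matrix, gave 1205.1 and 1144.1 against 335.0 and 370.2, a difference of -1.70. Lum, the collagen-binding proteoglycan lumican, gave 563.1 and 462.7 against 167.9 and 211.7, a difference of -1.38. In all 3 genes both 50-day arrays lay well below both 28-day arrays. Mgp, an inhibitor of calcification, differed by -1.01, Col5a2 by -1.24, Thbs4, a thrombospondin of tendon and nerve, by -1.81, and Nid1, a basement membrane linker, by -1.32. Eln, elastin, was called at -1.04 mainly through 1 array, with 123.7 and 118.5 against 110.0 and 21.8.

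The most abundant collagen genes were also lower, mostly short of the call: Col1a1 gave 6822.1 and 5453.1 against 3347.4 and 3084.1, a difference of -0.92, and all 6 tested probe sets of Col1a2 lay between -0.74 and -1.05, 1 of them called. Dcn, decorin, differed by -0.89 and Ogn, osteoglycin, by -0.96. Spp1, osteopontin, differed by -0.21 and its pools overlapped. Of 13 markers of fibroblasts and meninges, many of them the same genes, 3 were lower (23.1%, against 1.36% of all probe sets). Their median was -0.74, and their summed signal was 24632.5 and 22924.2 at 28 days against 13892.3 and 12704.9 at 50 days. Acta2, the actin of smooth muscle and myofibroblasts, differed by -1.07 and Tagln of the same cells by -0.98, while the median of 17 vessel genes was -0.22. The probe sets of a gene did not always agree. A dim second probe set of Fn1 (11.0 and 11.5 against 21.4 and 77.8) was called higher at 1.21, 2 other Col3a1 probe sets differed by -0.27 and 0.21, and Tnc, tenascin, had 1 probe set at -1.03 and another, dimmer, at 1.86.

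Matrix genes were also below 0 on balance in the operated rats. The median of the 49 genes was -0.19 in L4 ganglia, with 1 called lower, and -0.73 in L5 ganglia, with 18 lower and 1 higher. Over all probe sets, 1.77% were called in L4 (0.980% higher and 0.795% lower) and 10.4% in L5 (5.44% higher and 4.94% lower). Scaled to the hybridisation controls, the sham median of the matrix list was -0.22 with 5 called lower.

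Blood genes were also lower at 50 days. Hbb, Hbb-b1 and Hbb-bs, entries for beta-globin of red cells, were the clearest. Hbb gave 2899.7 and 2560.3 at 28 days against 944.9 and 850.3 at 50 days, a difference of -1.59. Hbb-b1 gave 2149.7 and 1942.2 against 657.2 and 652.1 (-1.62), and Hbb-bs, on chip B, 1162.1 and 1320.1 against 439.2 and 474.3 (-1.41). The pools lay far apart on each probe set, and Hbb and Hbb-b1 bear the array maker's f suffix for probes that match a family of similar sequences, so these probe sets may share transcripts. The probe sets named for alpha-globin were mixed: Hba-a1 on chip B gave 2966.2 and 2373.0 against 2877.5 and 2717.6, a difference of 0.07, while the dim Hba-a3 differed by -1.25. Probe sets without 1 gene name are not covered here, so no contrast of alpha- with beta-globin is drawn. Alas2, the haem enzyme of red cell precursors, differed by -0.27 and Slc4a1, the red cell anion exchanger, by -0.54. Of 11 red cell genes, 5 were lower (45.5%, against 1.36% of all probe sets) and 1, the dim Rhag, higher (9.09%, against 1.74%). Their summed signal was 10356.4 and 9205.6 against 5850.3 and 5584.4.

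Some neutrophil genes were lower too: of 5 tested, 2 were called lower in sham, against 1.36% of all probe sets. The list median was -0.38. S100a9, a calcium-binding protein that fills neutrophils, gave 173.9 and 167.9 at 28 days against 39.2 and 50.8 at 50 days, a difference of -1.68. RatNP-3b, a neutrophil defensin, gave 173.7 and 165.9 against 57.6 and 88.7, a difference of -1.11. All 5 tested genes of this list were below 0, S100a8 by -0.27 on its brightest probe set and -1.28, called, on another. Hbb differed by -2.19 in L4 and -2.38 in L5 ganglia, and S100a9 by -2.66 and -1.75. The beta-globins and S100a9 were thus lower at 50 days in all 3 kinds of ganglia. The neutrophil list as a whole did not follow in L4, where its median was -0.06 with 1 called lower. RatNP-3b differed there by -0.61 and was not called. In L5 the list median was -1.25, with 3 called lower. The part of blood left in the tissue in these differences was not tested.

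Among neuropeptides, 2 of 23 were called, both lower (8.70%, against 1.36% of all probe sets). Both are known for their induction in injured sensory neurons. Npy, neuropeptide Y, gave 186.4 and 233.7 at 28 days against 68.5 and 62.3 at 50 days, a difference of -1.50. Vip, vasoactive intestinal peptide, gave 98.3 and 125.9 against 47.1 and 30.2, a difference of -1.18. Gal, galanin, the third peptide of this kind, gave 128.0 and 145.3 against 70.2 and 86.1, a difference of -0.72 that was not called although the pools did not overlap. Peptides of intact nociceptors were level: Calca, the gene of CGRP, differed by -0.32, Tac1, which encodes substance P, by -0.09 and Sst, somatostatin, by -0.02 (0.62 on a dimmer probe set, without overlap), and the arrays of the 2 pools overlapped for Calca and Sst. Atf3, a transcription factor switched on by axon injury, gave 146.5 and 161.3 against 113.7 and 93.1, a difference of -0.53, and Gap43, a growth cone protein, differed by -0.18. Over the 28 tested genes of injury and regeneration, 2 were higher and 2 lower (7.14% each, against 1.74% and 1.36% of all probe sets). Their median was -0.01.

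The 2 genes of that list called higher were Csrp3, a LIM protein best known from striated muscle, at 1.09 and Crp at 1.08. Crp names the acute-phase C-reactive protein, but both of its probe sets bear the f suffix, so the gene behind them is uncertain. The brighter gave 316.0 and 305.6 against 691.7 and 647.3, and the other, at 1.22, gave 240.0 and 208.3 against 395.6 and 727.2. Th, tyrosine hydroxylase, the catecholamine enzyme of sympathetic neurons and of some touch-sensing fibres, gave 21.9 and 74.8 against 107.7 and 146.4, a difference of 1.33. It was the only gene called among 9 of peptidergic nociceptors, the list under which it stood.

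Of 9 clock genes tested, 1 was called higher and 1 lower (11.1% each, against 1.74% and 1.36% of all probe sets). The list median was 0.10, with 5 members above 0 and 4 below. Dbp, an output gene of the daily clock, gave 17.5 and 23.0 at 28 days against 164.8 and 93.2 at 50 days, a difference of 2.06 (4.16-fold). Bmal1, the core activator whose rhythm runs opposite to that of Dbp in rodent tissues, gave 65.6 and 60.1 against 16.7 and 30.1, a difference of -1.09. Neither gene's pools overlapped. Nr1d1, which represses Bmal1, differed by 0.45, Tef and Hlf, relatives of Dbp, by 0.48 and 1.11, with the Hlf pools overlapping, and Bhlhe40 by -0.65. In L4 ganglia Dbp and Bmal1 were called in the same directions, at 1.39 and -1.36, and in L5 ganglia they differed by -0.44 and 0.51. The labels give no hour of collection. The call of Bmal1 was lost with scaling to the hybridisation controls, with the larger pseudocount, and without the 50-day replicate 1 array, and its difference then lay between -0.92 and -0.72. The Bmal1 promoter is shown because its repressor and activator sites are the textbook account of that rhythm. It covers the 250 bases before the start on the plus strand at chr1:176766078-176766327 of GRCr8 (RefSeq), with the site AGGTCA of ROR and REV-ERB receptors in capitals, searched on both strands.
Bmal1: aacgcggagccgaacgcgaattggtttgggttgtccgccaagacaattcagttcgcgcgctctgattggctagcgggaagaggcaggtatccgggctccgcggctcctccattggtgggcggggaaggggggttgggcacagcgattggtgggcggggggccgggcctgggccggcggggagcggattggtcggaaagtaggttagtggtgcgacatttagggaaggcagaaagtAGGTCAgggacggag
The match lay at -15 to -10, and 14.1% of all promoter windows held 1 or more. The E-box CACGTG, the site of the Bmal1 protein and its partner, had 0 matches in this window and 0 in that of Dbp, and 5.6% of all windows held it.

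Immune cell lists were mixed, and their counts stand against 1.74% of all probe sets called higher and 1.36% lower. Of 21 macrophage genes 2 were called higher (9.52%) and the median was -0.00, while Lyz2, lysozyme, and Ctss, cathepsin S, differed by -0.61 and -0.49. The 2 were Ptprc, the pan-leukocyte CD45, at 1.04 and Cd74, the invariant chain of MHC class II. Cd74 had 335.3 and 353.0 against 775.6 and 938.4 on chip C, a difference of 1.26, but another probe set on chip A gave 128.0 and 145.0 against 24.5 and 126.4 (-1.05), so the direction of this gene is not settled. Of 9 T cell genes 2 were higher (22.2%), Ptprc and Il2rb, and the median was 0.36. Cd3e, which defines T cells, differed by 0.42 with 123.2 and 98.8 against 158.3 and 150.8, while Cd3g and Cd8b differed by -0.11 and 0.12. Of 23 genes of antigen presentation 1 was higher, with a median of 0.17. Il1a, an inflammatory cytokine, was called lower at -1.13, the only call of 22 cytokines and chemokines by their brightest probe sets, and Nr4a3, an orphan receptor, at -1.29, the only call of 23 immediate early genes. Complement (14 tested), interferon response (17), cell cycle (21), heat shock (24), proteasome (29), cholesterol synthesis (24), fat cell (11), stress hormone target (7), neuronal cytoskeleton (34) and GABA and glutamate receptor (18) lists held 0 calls. Among 29 genes of synaptic vesicle release 2 were lower, Syt5 and Sv2a, and among 25 neurotrophic factors and receptors 1, the growth factor Hgf, was higher at 1.27. Among 68 genes of oxidative phosphorylation Cox6c was lower, and among 52 ribosomal proteins Rpl30.

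**Figure D3:**
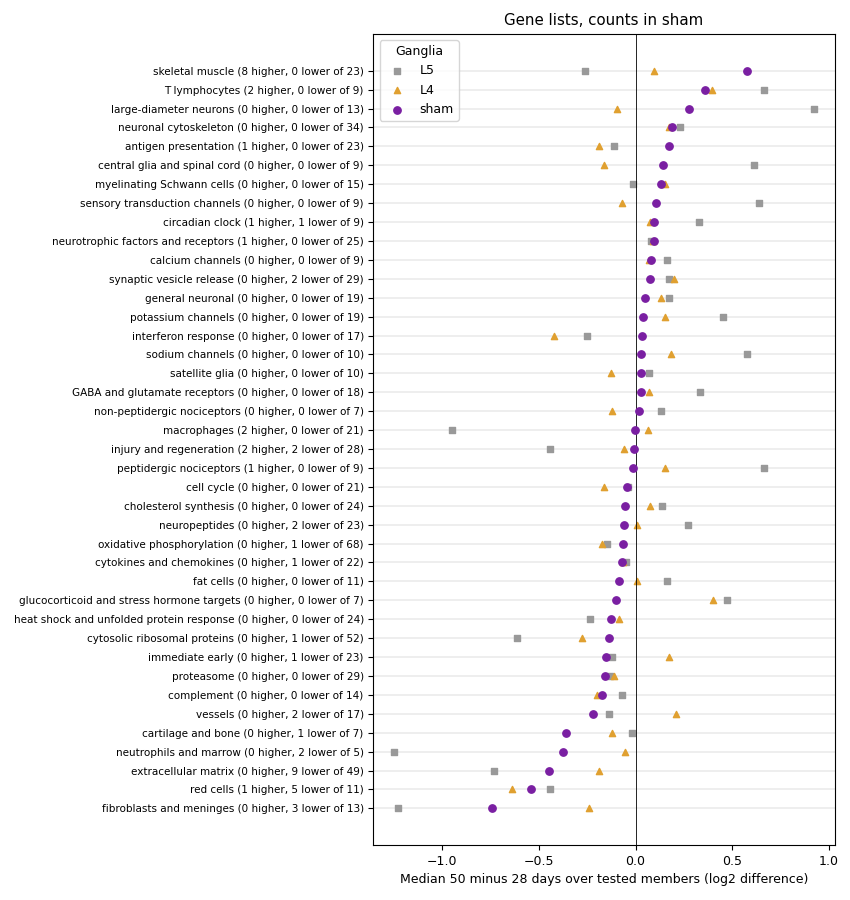
Median 50 minus 28 days difference (log2) of 40 gene lists in sham (circles), L4 (triangles) and L5 (squares) ganglia, with the sham calls of each list beside its name. Skeletal muscle (0.57) stands at the top of the sham medians and fibroblasts and meninges (-0.74) at the bottom.

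The largest single differences came from bright and dim probe sets, and other probe sets of the same gene often did not follow. Agpat1, an enzyme of phospholipid synthesis, had the largest named difference upward, 2.43, but its 28-day arrays disagreed, 16.4 and 394.7, against 605.5 and 686.8 at 50 days. Without the low array the difference was 0.68. Another Agpat1 probe set differed by -0.04. Ppp2r2d, a phosphatase regulatory subunit, differed by 2.35 from 28-day signals of 3.6 and 4.9, while its 2 other probe sets differed by -0.16 and -0.04. Igf2bp2, an mRNA-binding protein, gave 18.0 and 12.0 against 137.6 and 120.7, a difference of 2.17 from its only tested probe set. Ucp3, the uncoupling protein of muscle mitochondria, gave 7.5 and 19.4 against 62.6 and 91.9, a difference of 1.80. The other genes named as higher were Tmem214 (1.86), Agxt (1.79), Enoph1 (1.63), Ino80e (1.59), Pip4k2c (1.57), Cd7 (1.56), Lhcgr (1.54) and Dnajb2 (1.52), with Dbp, Tnc and Atp2a1 given above.

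Of the genes lower at 50 days, Cxcl14, a chemokine of fibroblasts and epithelia, had the largest difference, with 76.4 and 91.6 at 28 days against 5.1 and 11.2 at 50 days, a difference of -2.22. A companion probe set on the same chip differed by -0.89 and another, on chip B, by 0.14. Ctsk, cathepsin K, a collagen-degrading protease, gave 145.8 and 144.9 against 44.5 and 39.3, a difference of -1.53 and the only call among 7 genes of cartilage and bone, and Gpsm2, a spindle orientation protein, 336.7 and 300.6 against 88.8 and 111.1 (-1.52). Slc34a1, a phosphate transporter best known from kidney, was at -2.03 on 1 probe set while 2 others differed by 0.23 and 0.40. Syt5, a synaptotagmin, was called at -1.66 through 1 low array, with 191.1 and 220.9 against 123.2 and 22.1. The others named as lower were Sh2b3 (-1.83), Il17ra (-1.70), Mark4 (-1.66), Ptpn6 (-1.57) and Pabpc4 (-1.56), and for Sh2b3, Il17ra, Mark4 and Pabpc4 another tested probe set lay above 0.

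A day difference common to sham, L4 and L5 ganglia could be tested over pools. With limma over the 6 pools, 3 at each day, with condition as a term, 45 probe sets passed an adjusted p of 0.05, 16 higher (0.102%) and 29 lower (0.184%) at 50 days, and 26 of them had 1 gene name. The fit has 2 residual degrees of freedom and rests on a variance shared across probe sets by an intensity trend. Without that trend 0 probe sets passed, with a smallest adjusted p of 0.0901 by limma, against 2622 at an unadjusted p under 0.05. Without the replicate 1 arrays the same limma fit called 0 higher and 5 lower, without the replicate 2 arrays 0 and 2, and without the L4 pools 153 and 269. Hbb differed by -2.05 ± 0.17 (SE, limma adjusted p = 0.000367) and Npy by -1.55 ± 0.18 (limma adjusted p = 0.0054). S100a9 followed at -2.03 ± 0.26 and Col3a1 at -1.56 ± 0.20, both with a limma adjusted p of 0.0093, then Cxcl14 at -2.43 ± 0.33 (limma adjusted p = 0.012) and Lum at -1.35 ± 0.20 (limma adjusted p = 0.0185). Vip, Fn1 and Thbs4 also passed and were lower. Emp1, a membrane protein of epithelia and Schwann cells, was lower by limma (adjusted p = 0.0266), with sham signals of 400.0 and 558.8 against 154.7 and 188.7. Among named genes only Ntn3, a netrin (1.23 ± 0.17, limma adjusted p = 0.0185), Pip, Cdk16 and the entry Crp, whose gene is uncertain, were higher. Most of the 16 probe sets called higher had no gene name, so what they measure is not known here. Acta1, Atp2a1, Dbp and Bmal1 did not pass.

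Where a day difference was called in the operated rats alone, sham ganglia nearly always had its sign. Fitted to the 4 pools of L4 and L5 alone, limma called 19 probe sets higher and 57 lower at 50 days. These counts rest on fewer residual degrees of freedom than the fit that included sham, and on a variance shared by an intensity trend. Without that trend the fit that included sham called 0 probe sets. The fit to L4 and L5 alone was not run without it. In the sham pools, which that fit did not use, 18 of the 19 were above 0 (94.7%, against 51.8% of all probe sets) and 56 of the 57 below 0 (98.2%, against 48.2%). By the rule for sham, 9 of the 19 and 19 of the 57 were called in the same direction and 0 in the opposite one, and the median sham differences were 0.79 and -0.82. The named genes called in both were Akr1d1 and the uncertain entry Crp on the higher side. On the lower side they were Hbb, Hbb-b1, Hbb-bs, S100a8, S100a9, RatNP-3b, Npy, Cxcl14, Cd74, Emp1, Ncoa4, Col3a1, Col5a2, Fn1, Lum, Mgp and Thbs4. Cd74 stands here by its chip A probe set, and its brighter chip C probe set was called higher in sham, at 1.26. All 28-day pools stand against all 50-day pools here, so the animals' age, the time since surgery and the handling of the arrays of each day cannot be told apart.

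The lists of called probe sets overlapped in part. Of the 273 probe sets higher in sham, 18 (6.59%) were called higher in L4 and 63 (23.1%) in L5 ganglia, which is 11.7% of the 154 calls of L4 and 7.36% of the 856 of L5. Of the 214 lower in sham, 16 (7.48%) were called lower in L4 and 79 (36.9%) in L5, which is 12.8% of 125 and 10.2% of 776. Over all probe sets the shares called higher and lower were those given above for L4 and L5. Calls in the opposite direction numbered 4 (1.47%) and 5 (2.34%) in L4, above the 0.795% and 0.980% of all probe sets called that way, and 10 (3.66%) and 6 (2.80%) in L5, below its 4.94% and 5.44%. Across the 15721 probe sets the sham difference correlated with that of L4 at r = 0.197 and with that of L5 at r = 0.399, a description over probe sets that share arrays within a pool.

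Whether sham departed from the operated rats was tested with limma as the sham difference minus the mean of the L4 and L5 differences. No probe set passed an adjusted p of 0.05, and the smallest limma adjusted p was 0.175. By limma 397 had an unadjusted p under 0.05, where 786 would be expected if no probe set differed. The fit has 1 residual degree of freedom, and on simulated pools it recovered 2% of changes of size 1 and 40.2% of size 2. The result therefore does not show that sham and operated rats behaved alike. Acta1, at 1.49 in sham against 0.22 and -1.73, had an adjusted p of 0.175 in this limma test, and Atp2a1 one of 0.409.

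**Figure D4:**
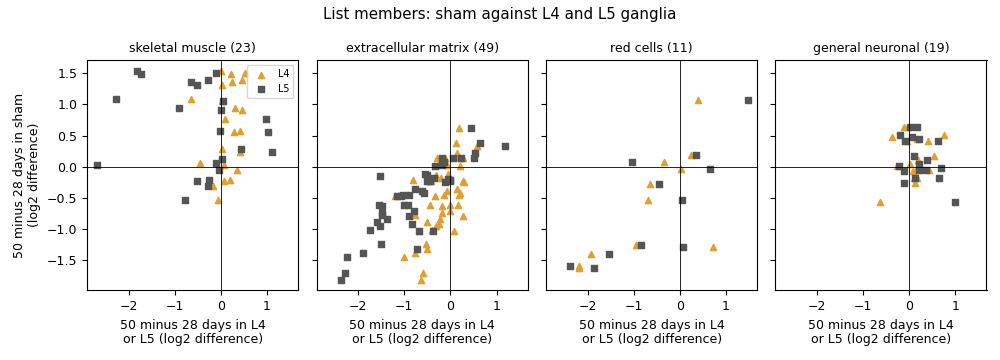
Each point is a gene of the skeletal muscle (23), extracellular matrix (49), red cell (11) or general neuronal (19) list: its 50 minus 28 days difference in sham (vertical, log2) against that in L4 (triangles) or L5 ganglia (squares). Muscle genes lie mostly above 0 in sham (18 of 23) and to both sides of 0 in L4 and L5, matrix genes mostly toward the lower left, and neuronal genes around 0.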

How the data were processed

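RNA of pooled rat ganglia was hybridised to 2 arrays per pool on each of 3 chip types. The deposited values are intensity signals per probe set, for which the submitters' processing notes name MAS5 (version not given in the sources used here). The trimmed mean (2% from each end) was 149.71 to 149.98 on every array. Each chip was analysed on its own as log2(signal + pseudocount), with the 20th percentile of the chip's signals as pseudocount (12.8, 17.7 and 20.2 on chips A, B and C), and probe sets with a mean at or above the 40th percentile were tested. Arrays of a pool were averaged. For sham ganglia, 1 pool a day allows no test. Day terms over pools were fitted with limma 3.58.1 in R 4.3.3 with an intensity trend and Benjamini-Hochberg adjustment over all chips at 0.05. Both limma tests were run on simulated pools with spreads drawn as limma assumes. The day term recovered 53% of changes of size 1 and 94.7% of size 2, with 5.53% of calls false. The test of sham against L4 and L5 recovered 2% and 40.2%, with 23.6% of calls false. The number of arrays limits the precision, and nothing says that pools were repeated, so the pools' own spread within a day and condition is unknown.

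Probe sets were named through GEO's platform annotation, which can be old: 7006, 5351 and 5821 probe sets of chips A, B and C had 1 gene, 308, 38 and 45 several, and 1426, 3343 and 2864 none. A gene in a list stands for its brightest tested probe set. Named were the 15 largest called differences each way, the 10 brightest genes of each chip, up to 4 called members of each of 40 lists, 18 set genes, and up to 5 genes each way from the limma tests. Other genes were named after their values were seen. The members and lists were chosen with earlier results of these data known. Other scalings, pseudocounts, filters, thresholds and left-out arrays or pools were tried. Over all tested probe sets replicate numbers hardly paired arrays: deviations of same-numbered arrays correlated at 0.018, 0.011 and 0.033 on the 3 chips. On chip C the replicate 2 arrays of both pools did share higher maxima.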

Additional observations from a re-analysis of the deposited data

Results flagged for a closer look

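Of the genes singled out for description, 3 are given here in which every array moved one way in sham ganglia and the opposite way in L5 ganglia, each by at least 1 on the log2 scale. Acta1, skeletal muscle actin, differed by 1.49 in sham and -1.73 in L5, and limma's test of sham against the mean of L4 and L5 gave an adjusted p of 0.175. Atp2a1, the muscle calcium pump, differed by 1.54 in sham and -1.83 in L5 (limma adjusted p = 0.409). Slc34a1, a phosphate transporter, differed by -2.03 in sham and 1.41 in L5 (limma adjusted p = 1). None passed, and the difference from L5 alone was not tested. Over all probe sets, 10 called higher in sham were called lower in L5 and 6 called lower in sham were called higher in L5.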

How the results depend on the processing

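No called named probe set changed direction, while many of the 45 not called, near 0, changed sign. Of the 58 called, 31 kept the call under every other scaling, pseudocount, filter and left-out or moved array. The other 27 lost it under 1 or more. A filter that removed a probe set was not counted for it. The threshold of 1.5 and the replicate block were not part of this count, and the threshold of 1.5 kept 12.5% of all 487 calls. Against 273 probe sets higher and 214 lower in sham, scaling to the hybridisation controls gave 565 higher, the pseudocount at the 40th percentile 73 and 62, no filter 528 and 412, a filter at the 60th percentile 111 and 100, and a difference of at least 1.5 gave 36 and 25. Leaving out 1 array gave 366 to 531 higher and 287 to 413 lower. With a replicate block, in which both same-numbered differences had to reach the threshold, 101 were higher and 85 lower. Over all tested probe sets the replicate numbers hardly paired the arrays. The larger pseudocount kept 27.7% of the calls, so dim signals limit what can be called.

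By limma, the day term over pools (16 higher, 29 lower) gave 57 lower without the sham pools, 153 and 269 without L4, 34 higher without L5, 0 and 0 without a trend, 0 and 5 without a condition term, 0 higher and 2 to 5 lower without the arrays of 1 replicate number, 5 and 13 after quantile normalization, 50 lower after median centring, and 6 and 17 with no filter. For sham against L4 and L5 (0 and 0), limma gave 5 and 2 after median centring and 3 higher with either other pseudocount or the 60th percentile filter. The cause of these changes was not tested. The placings of the chip B array and the muscle median over all probe sets were chosen after seeing the data.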
